A study of Mus musculus with 4 samples.

Results

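The S100 genes and annexin A2 were examined in extensively self-renewing erythroblasts of the mouse, cultured precursors of red cells from the fetus that keep dividing until they are made to mature. The members were 8 S100 genes (S100a1, S100a4, S100a6, S100a8, S100a9, S100a10, S100a11 and S100a13) and Anxa2, and all 9 had a row among the 23234 genes of the authors' deposited table. They were selected by gene name with the measured levels of these same libraries known, so their levels and the authors' calls on them are a description and are given without a test. The labels describe 4 groups of 1 sample: proliferating cells with a short hairpin RNA against Setd8, maturing cells with a hairpin against Setd8, maturing cells with a non-targeting hairpin, and proliferating cells with the non-targeting hairpin. The groups used here were the proliferating knockdown, the maturing control, collected 6 h after transfer to maturation medium, and the proliferating control; the maturing knockdown was not analysed here. All 3 used groups carried a hairpin, and mouse strain, age and sex, and whether cells of a sample came from 1 clone or several cultures, were not given in the sources used here.

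S100 proteins are small calcium-binding proteins with EF-hand loops that mostly act as dimers, switching their partners on or off as calcium rises. Annexins bind acidic phospholipids of membranes in the presence of calcium. S100a10 is an unusual S100 protein whose loops no longer bind calcium, and it works as the light chain of a complex with annexin A2 at the inner face of the plasma membrane, where the complex anchors other proteins and, at the cell surface, helps to activate plasminogen.

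Levels are given in FPKM, the fragments of a transcript scaled by its length and by the size of the library, so that levels of genes of different length can be set side by side. Setd8 stood at 9.28 FPKM in the knockdown, 25.9 FPKM in the maturing control and 25.1 FPKM in the proliferating control, and Gata2, named in the study's title, at 129, 29.6 and 54.9 FPKM in the same order. At least 1 FPKM in some library was reached by 14 of 14 erythroblast marker rows, whose sum was 848 FPKM in the knockdown, 3094 FPKM in the maturing control and 1959 FPKM in the proliferating control. Of that sum, 2 adult globin rows made up 545 FPKM in the knockdown, 2710 FPKM in the maturing control and 1640 FPKM in the proliferating control. The other 12 rows made up 304, 384 and 319 FPKM in the same order. Row by row, 11 of the 14 were lower in the knockdown than in the proliferating control. Their median log2 ratio of FPKM + 1 over all 14 was -0.84. The authors marked 4 of the 14 as lower there and 0 as higher, beside 2.15% and 3.89% of genes at 1 FPKM or more. Alas2 was among these 4, at 0.0900, 4.41 and 4.55 FPKM in the same library order. The 3 higher rows were Gata1, Tal1 and Rhag, the last at 119, 56.2 and 77.9 FPKM. The 11 mast cell and basophil marker rows summed to 501.5 FPKM in the knockdown, 38.1 FPKM in the maturing control and 71.0 FPKM in the proliferating control. The knockdown library was 1.43 times, and the maturing control library 1.55 times, as deep as the proliferating control by what a single fragment was worth among very low genes; absolute depth is unknown. With 1 library a group, no difference below has a replicate check, and errors are those of the authors' model. In such bulk samples, fewer cells with a transcript and less of it per cell cannot be told apart.

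S100a10 was nearly absent from the knockdown library and was the most abundant member in both control libraries. S100a10 (chromosome 3, 93359039 to 93368567, mm9) had 0.138 FPKM in the knockdown, 16.2 FPKM in the maturing control and 25.5 FPKM in the proliferating control. The knockdown value was 0.540% of the proliferating control's, a 185-fold difference, while the maturing control held 63.6% of that level. The deposited log2 ratio of the knockdown over the proliferating control was -7.53 ± 0.67 (standard error of the authors' model), and the authors' deposited table lists its q-value as 0. Against the maturing control the authors' deposited table gave the knockdown a log2 ratio of -6.88 ± 0.68 and again a q-value of 0. For the maturing over the proliferating control the log2 ratio in the authors' deposited table was -0.65 ± 0.52 with a q-value of 0.894, and the gene was not marked. Among the 5657 genes at 5 FPKM or more in at least 1 library, S100a10 had the second lowest log2 ratio of FPKM + 1 in the knockdown, at -4.54, where the median gene had -0.08. That rank depends on the 1 FPKM added to each level. The deposited log2 ratios of Phgdh (-11.3) and Cnn3 (-9.00), which add nothing, were below the -7.53 of S100a10. Hemt1 and Gml were listed at 0 in the knockdown. In rank among all measured genes S100a10 stood above 1.09% in the knockdown, above 82.0% in the maturing control and above 88.7% in the proliferating control.

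**Figure D1:**
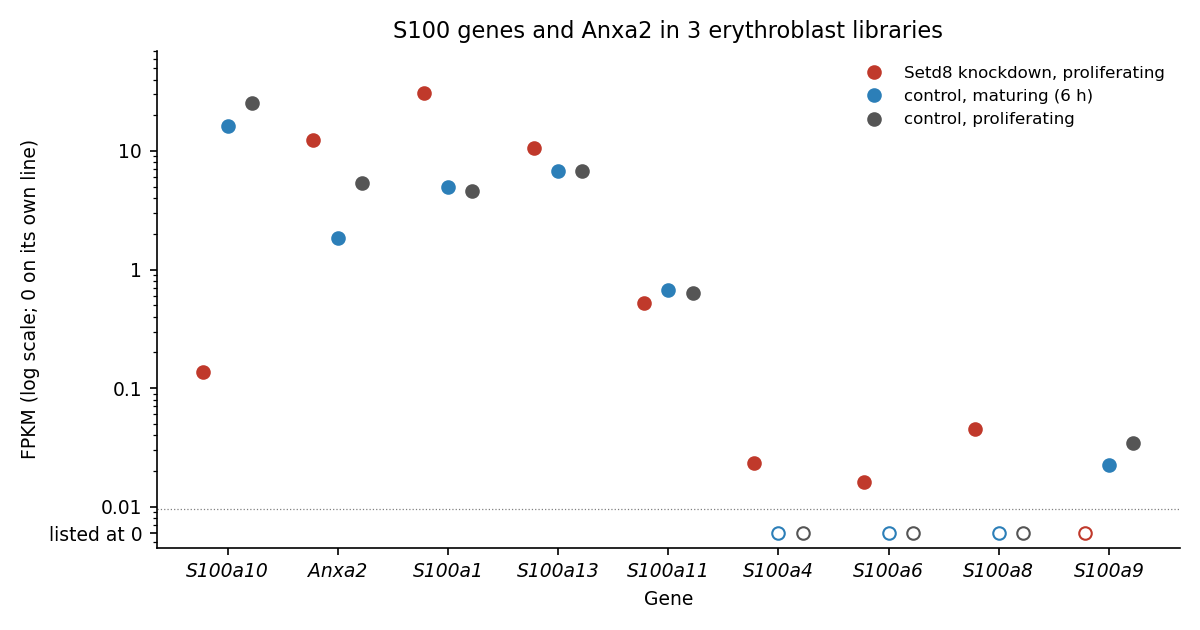
FPKM of each member in the knockdown (red), the maturing control (blue) and the proliferating control (grey), 1 library a point, on a log axis with open points for values listed at 0. S100a10 lies at 0.138 FPKM in the knockdown and at 16.2 and 25.5 FPKM in the maturing and the proliferating control, Anxa2 and S100a1 are highest in the knockdown, and S100a4, S100a6, S100a8 and S100a9 never reach 0.05 FPKM.

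Anxa2, which encodes the heavy chain of the complex with S100a10, did not follow it in the knockdown. Both genes were lower in the maturing than in the proliferating control, and neither was marked there. Anxa2 (chromosome 9, 69301490 to 69339592, mm9) had 12.5 FPKM in the knockdown, 1.84 FPKM in the maturing control and 5.39 FPKM in the proliferating control. It was thus highest in the library where S100a10 was lowest, and lowest in the maturing control. Its deposited log2 ratio of the knockdown over the proliferating control was 1.21 ± 0.51, with a p-value of 0.0170 and a q-value of 0.175 in the authors' deposited table, so it was not marked. For the maturing over the proliferating control the authors' deposited table gave -1.55 ± 0.55 and a q-value of 0.0593, just short of its threshold of 0.05. Only the pair of libraries with the extreme values was marked in the authors' deposited table, the knockdown over the maturing control, where the log2 ratio was 2.76 ± 0.51 and the q-value 3.74e-06. The level of S100a10 relative to that of Anxa2 was 0.0111 in the knockdown, 8.80 in the maturing control and 4.73 in the proliferating control. The S100a10 message was therefore far below the Anxa2 message in the knockdown and severalfold above it in both controls.

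The start of Anxa2 is shown because its level was above that of the proliferating control in the knockdown and below it in the maturing control. The window is 250 bases before to 50 after the RefSeq start on chr9:69453433-69453732 (GRCm38.p6, plus strand), and capitals mark CACCC or its complement GGGTG, the kind of box read by Krüppel-like factors.
Anxa2: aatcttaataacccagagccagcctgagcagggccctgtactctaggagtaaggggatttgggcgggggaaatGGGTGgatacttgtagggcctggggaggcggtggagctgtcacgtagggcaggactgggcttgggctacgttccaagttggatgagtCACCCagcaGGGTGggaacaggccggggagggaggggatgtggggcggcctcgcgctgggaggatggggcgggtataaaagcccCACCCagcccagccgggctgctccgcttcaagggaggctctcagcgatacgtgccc
It held 4 such words and no GATAA or TTATC, the core word of GATA factors. Over 32851 RefSeq promoter windows of this length, 57.5% held CACCC and 25.4% held GATAA on either strand. A word match describes these letters and is no evidence of binding.

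S100a1 was the member with the highest level in the knockdown. S100a1, best known as a calcium sensor of heart and skeletal muscle (chromosome 3, 90314956 to 90318252, mm9), had 31.0 FPKM in the knockdown, 5.0 FPKM in the maturing control and 4.63 FPKM in the proliferating control. The control libraries were close to each other and the knockdown was 6.69 times the proliferating control. The authors' deposited table marked it as higher in the knockdown, its log2 ratio being 2.74 ± 0.52 and its q-value 5.09e-06, and likewise over the maturing control, at 2.63 ± 0.52 and a q-value of 1.58e-05. For the maturing over the proliferating control the authors' deposited table gave 0.11 ± 0.55 and no mark. In the knockdown S100a1 stood above 91.1% of measured genes, against 47.4% in the maturing control and 45.4% in the proliferating control.

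S100a13 starts 105 bases from S100a1 on the opposite strand but had a smaller difference. S100a13, which takes part in the release of proteins that lack a signal peptide, such as Fgf1 and interleukin 1 alpha (chromosome 3, 90318357 to 90328503, mm9), had 10.7 FPKM in the knockdown, 6.82 FPKM in the maturing control and 6.79 FPKM in the proliferating control. Its log2 ratio of the knockdown over the proliferating control was 0.65 ± 0.56 with a q-value of 0.951 in the authors' deposited table, and neither this nor any other pair of libraries was marked. The level of S100a1 relative to S100a13 was 2.90 in the knockdown, 0.733 in the maturing control and 0.682 in the proliferating control, so S100a1 was above its neighbour only in the knockdown library. The difference between the changes of the 2 genes was not tested.

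The starts of this divergent pair are shown because 1 gene was marked and the other was not. RefSeq windows of 250 bases before to 50 after each start lie on chr3:90514281-90514580 (minus strand, S100a1) and chr3:90514185-90514484 (plus strand, S100a13) of GRCm38.p6 and share 204 bases, read from opposite strands; capitals again mark CACCC or GGGTG.
S100a1: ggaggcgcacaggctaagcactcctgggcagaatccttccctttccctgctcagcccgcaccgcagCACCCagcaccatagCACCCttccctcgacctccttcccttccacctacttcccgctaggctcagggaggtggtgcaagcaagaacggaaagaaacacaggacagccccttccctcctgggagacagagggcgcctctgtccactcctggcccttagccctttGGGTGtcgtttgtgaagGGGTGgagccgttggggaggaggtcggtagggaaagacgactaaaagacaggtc
S100a13: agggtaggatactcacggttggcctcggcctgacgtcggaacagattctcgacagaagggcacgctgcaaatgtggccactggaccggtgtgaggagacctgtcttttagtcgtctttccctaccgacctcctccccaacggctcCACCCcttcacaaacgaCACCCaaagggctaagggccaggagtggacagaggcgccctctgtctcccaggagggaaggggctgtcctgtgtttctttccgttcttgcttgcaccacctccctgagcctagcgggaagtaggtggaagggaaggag
The S100a1 window held 4 such words, and the 2 of the S100a13 window lie in the shared stretch and so are in both. Neither held GATAA or TTATC. The S100a1 window had 11 CpG, that of S100a13 14 and that of Anxa2 13, where the median window of the table had 7. These counts lay at percentiles 58.6, 63.7 and 62.1 of all windows. The S100a11 window had 15 CpG, and those of S100a4, S100a6, S100a8 and S100a9 had 2, 6, 4 and 2. The 8 members with a window were all but S100a10, and CACCC was found in 5 of the 8 and GATAA in 2 of the 8, S100a9 and S100a11.

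S100a11 was low in every library. S100a11, a partner of annexin A1 in other cells (chromosome 3, 93324418 to 93330210, mm9), had 0.520 FPKM in the knockdown, 0.674 FPKM in the maturing control and 0.640 FPKM in the proliferating control. These levels lay close together, with a log2 ratio of the knockdown over the proliferating control of -0.30 ± 0.62 and no mark in any comparison of the authors' deposited table. S100a11 is the gene next to S100a10, 28.8 kb away, and lay above it in the knockdown and far below it in both controls.

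The remaining S100 members were at or near 0. S100a8 and S100a9 form calprotectin, the main calcium-binding protein of neutrophil cytosol. S100a8 (chromosome 3, 90472993 to 90473956) was at 0.0454 FPKM in the knockdown and listed at 0 in both controls, and S100a9 (chromosome 3, 90496555 to 90499613) was listed at 0 in the knockdown and stood at 0.0224 FPKM in the maturing control and 0.0341 FPKM in the proliferating control. S100a4, which binds non-muscle myosin (chromosome 3, 90407692 to 90409967), was at 0.0232 FPKM in the knockdown, and S100a6, also called calcyclin (chromosome 3, 90416816 to 90418336), at 0.0163 FPKM, both listed at 0 in the controls. The authors' deposited table lists no test of these 4 genes. There, in the authors' deposited table, the genes S100a4, S100a6 and S100a8 carry an identical p-value of 0.172 for the knockdown over the proliferating control, which 830 genes share, all of them listed at 0 in the proliferating control. No order can be read among levels this low.

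Over all members, the authors' deposited table marked 2 of the 5 tested in the knockdown against the proliferating control, S100a10 lower and S100a1 higher, beside 9.05% of the 11665 genes tested. It marked 0 of 5 in the maturing against the proliferating control, where 1.75% of 11298 tested genes were marked, and Anxa2 alone had an unadjusted p-value under 0.05 there, at 0.00452. For the knockdown over the maturing control it marked 3 of 5, S100a10 lower and S100a1 and Anxa2 higher, beside 11.6% of 9241 tested genes. The members were chosen with these values known, so the shares are not read against each other, and the 3 comparisons share libraries. The 8 S100 members together summed to 42.4 FPKM in the knockdown, 28.7 FPKM in the maturing control and 37.6 FPKM in the proliferating control. The sums lay closer together than the levels of S100a10 or S100a1, and their make-up differed. S100a10 was 0.325% of the sum in the knockdown, 56.4% in the maturing control and 67.8% in the proliferating control. S100a1 was 73.1% in the knockdown, 17.4% in the maturing control and 12.3% in the proliferating control.

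**Figure D2:**
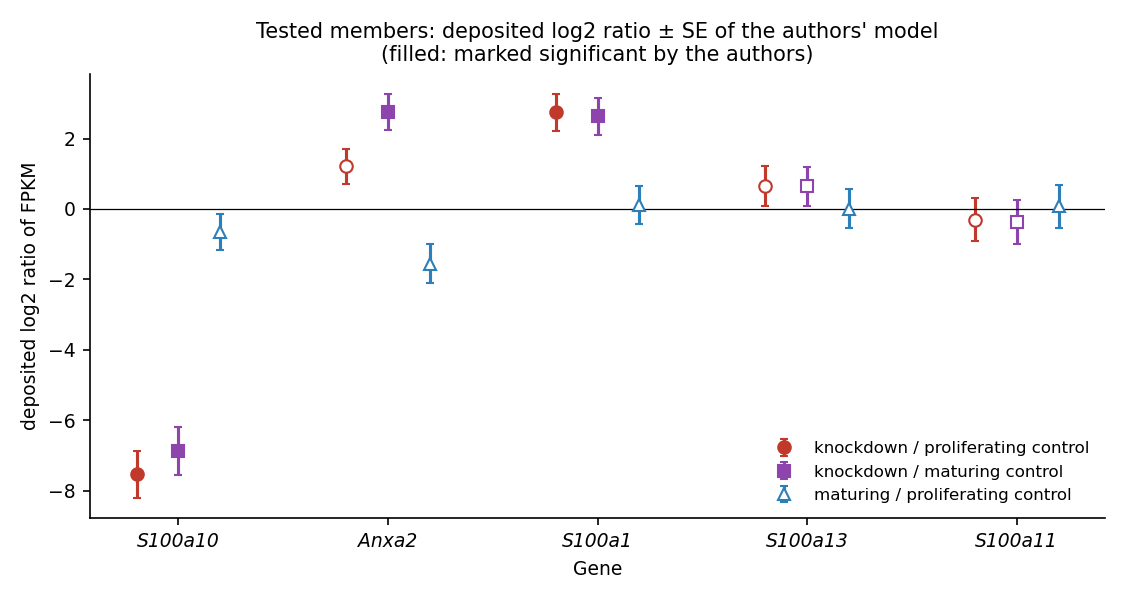
Deposited log2 ratio of FPKM for the 5 tested members, with the standard error of the authors' model as bars, for the knockdown over the proliferating control (circles), the knockdown over the maturing control (squares) and the maturing over the proliferating control (triangles); filled points were marked by the authors. S100a10 lies at -7.53 and -6.88 in both ratios of the knockdown, S100a1 at 2.74 and 2.63, and no triangle is filled.

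The order of members by level differed between libraries. In the knockdown it was S100a1, Anxa2, S100a13, S100a11 and then S100a10. In the maturing control it was S100a10, S100a13, S100a1, Anxa2 and S100a11, and in the proliferating control S100a10, S100a13, Anxa2, S100a1 and S100a11. With 1 library a group there is no spread by which neighbours in these orders could be told apart; S100a13, Anxa2 and S100a1 lay between 4.63 and 6.79 FPKM in the proliferating control.

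**Figure D3:**
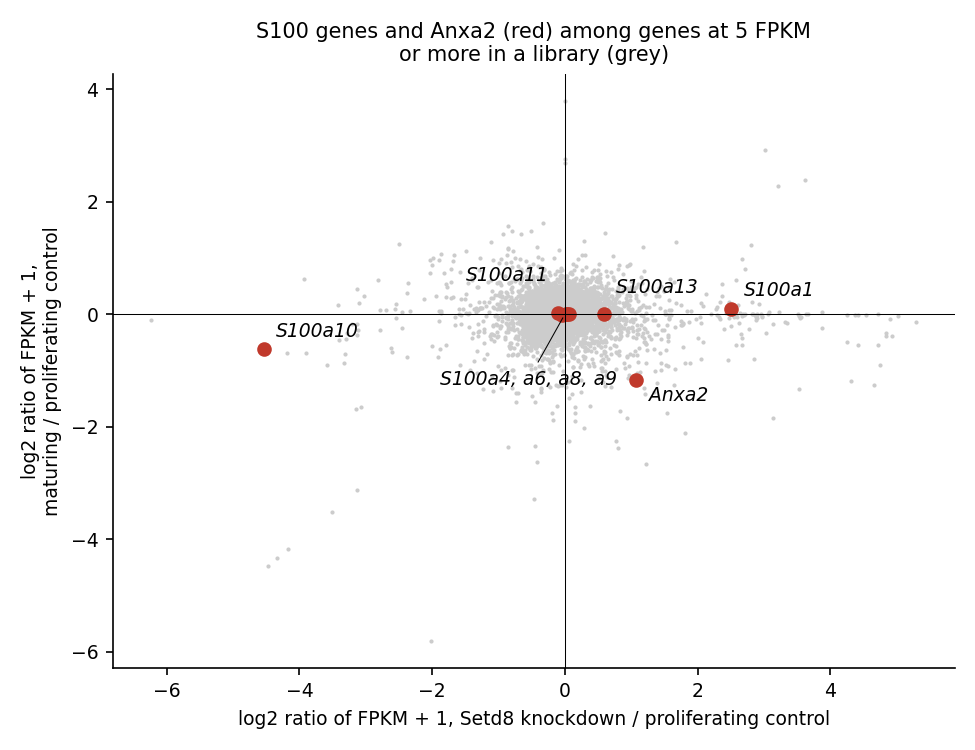
Log2 ratio of FPKM + 1 of the knockdown over the proliferating control (horizontal) and of the maturing over the proliferating control (vertical) for the 5657 genes at 5 FPKM or more in a library (grey) and the 9 members (red). S100a10 lies at -4.54 and -0.62, S100a1 at 2.51 and 0.09 and Anxa2 at 1.07 and -1.17, and the members do not share a direction.

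The genes most like S100a10 in pattern were near 0 in the knockdown as well, save 1. Likeness was the distance between the pairs of log2 ratios of FPKM + 1 over the 3 libraries, which are too few to rank genes firmly. The nearest was Hemt1, at a distance of 0.37, listed at 0 in the knockdown and at 10.2 FPKM in the maturing control and 17.1 FPKM in the proliferating control. Gml, at 0.65, was listed at 0 in the knockdown, with 8.21 FPKM in the maturing control and 13.9 FPKM in the proliferating control. Phgdh, the first enzyme of serine synthesis, followed at 1.0, with 0.00434 FPKM in the knockdown, 5.39 FPKM in the maturing control and 11.01 FPKM in the proliferating control, then Bex4 at 1.15 and Cnn3, which encodes an actin-binding calponin, at 1.23. Bex4 kept 16.1 FPKM in the knockdown, against 131 FPKM in the maturing control and 180.0 FPKM in the proliferating control. For Anxa2 the nearest was Kit, the receptor for stem cell factor, at a distance of 0.04. Kit had 120.1 FPKM in the knockdown, 25.5 FPKM in the maturing control and 58.0 FPKM in the proliferating control, and the authors' test of it returned no result. Pkd1l3 (0.12), Tfcp2 (0.13), Cgnl1 (0.15) and the potassium channel subunit gene Kcne3 (0.18) came next by distance to Anxa2. All of these 5 were highest in the knockdown and lowest in the maturing control, which follows from choosing them by their likeness to Anxa2. The genes nearest to S100a10 were likewise chosen by ratios that include its low knockdown value.

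Genes that lie around the S100 members on chromosome 3 did not share the values of S100a1 and S100a10. The S100 genes of this chromosome fall into 2 groups, with S100a1 to S100a9 (12 S100 genes) at one end and S100a11 and S100a10 at the other, 2825 kb apart. Of the 12, S100a1 and S100a13 alone reached 1 FPKM in a library. Between the groups lie 52 genes of the deposited table, most of them with the names of skin barrier families such as Sprr and Lce. Of all 52, 24 were listed at 0 in all 3 libraries and 2 reached 1 FPKM. These were 4930529C04Rik, at 4.59 FPKM in the knockdown, 5.80 FPKM in the maturing control and 6.17 FPKM in the proliferating control, and Lce6a, a late cornified envelope gene. Lce6a was at 1.08 FPKM in the knockdown and listed at 0 in both controls. Of the 52 genes, 3 were tested in the knockdown against the proliferating control. The authors' deposited table marked Lce6a alone of these 3, beside 9.05% of all genes tested. Of 12 other genes within 250 kb of the S100 members, 8 reached 1 FPKM. The log2 ratios of FPKM + 1 of these 8 ran from -0.34 to 0.28 in the knockdown over the proliferating control. Of 11 tested among the 12, 0 were marked there, beside the same 9.05% of all genes tested. Next to S100a1 on its other side, 2500003M10Rik (Chtop in RefSeq) had 16.3 FPKM in the knockdown, 17.8 FPKM in the maturing control and 16.6 FPKM in the proliferating control. Beyond S100a10, Tdpoz2 had 1.79 FPKM in the knockdown, 1.52 FPKM in the maturing control and 1.70 FPKM in the proliferating control. On chromosome 9, Narg2, the gene before Anxa2, had 1.42, 1.82 and 1.59 FPKM in the same order of libraries.

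**Figure D4:**
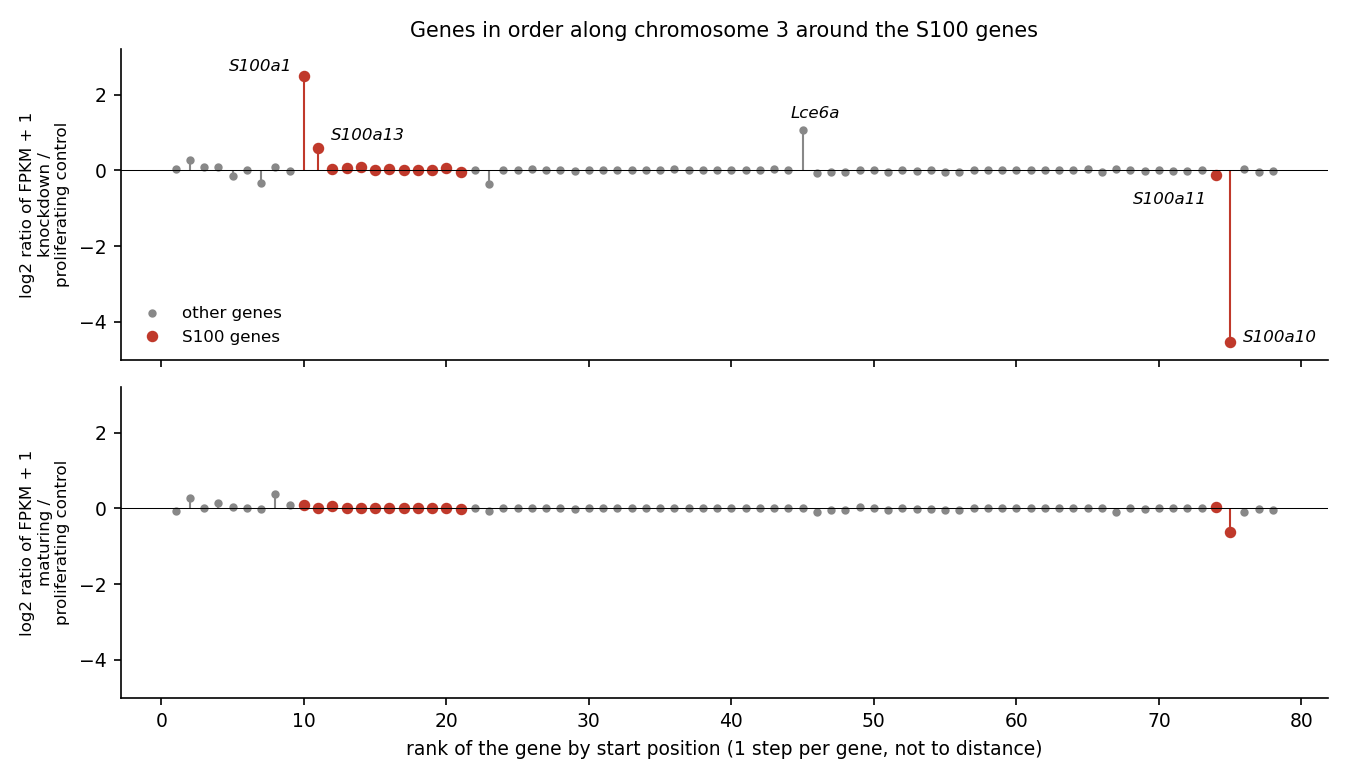
Log2 ratio of FPKM + 1 for genes in order along chromosome 3, from 250 kb before S100a1 to 250 kb after S100a10, for the knockdown over the proliferating control (top) and the maturing over the proliferating control (bottom); the horizontal axis is rank, not distance. S100a1 at 2.51 and S100a10 at -4.54 stand out from genes beside them in the top panel, and S100a10 at -0.62 is the lowest point of the bottom panel.

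The other S100 genes were at or near 0. Of 17 S100 genes in the table, 2 reached 1 FPKM in the knockdown, 3 in the maturing control and 3 in the proliferating control. The 9 S100 genes outside the member list were at most at 0.0599 FPKM in any library, and 5 of them were listed at 0 in all 3. S100pbp, whose product binds S100P in human cells, is no S100 gene and had 4.87 FPKM in the knockdown, 4.81 FPKM in the maturing control and 4.12 FPKM in the proliferating control.

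Of the 11 other annexin genes, 5 were measured at 1 FPKM or more in a library. Anxa5, whose product binds phosphatidylserine, was the 1 gene of the 5 that the authors' deposited table marked in the knockdown against the proliferating control, as higher. Over all 9498 measured genes tested, 3.89% were marked as higher there and 2.15% as lower. It had 2.37 FPKM in the knockdown, 0.340 FPKM in the maturing control and 0.479 FPKM in the proliferating control, its log2 ratio over the proliferating control being 2.31 ± 0.55, at a q-value of 0.000651 in the authors' deposited table. Anxa5 passed the 1 FPKM filter only through its knockdown value. Anxa4 had 3.02 FPKM in the knockdown, 1.38 FPKM in the maturing control and 1.07 FPKM in the proliferating control, and was not marked. Anxa7, Anxa9 and Anxa11 lay between 1.95 and 9.58 FPKM in all libraries, each with a log2 ratio smaller than its error. The median log2 ratio of FPKM + 1 over the 5 was 0.08 in the knockdown and -0.03 in the maturing control, both over the proliferating control, against -0.05 and 0.01 over all 9611 measured genes.

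Most genes whose products work with S100 proteins or annexins were not marked in the knockdown against the proliferating control. Of 14 measured partners and receptors, the authors' deposited table marked 2 as higher and 0 as lower. The shares over all measured genes are those given for the annexins, 3.89% and 2.15%. The median of the 14 log2 ratios of FPKM + 1 was -0.12, against -0.05 over all measured genes, and they ran from -1.19 to 2.50. Below the 1 FPKM limit, the authors' deposited table also marked the calpain gene Capn2 as lower, at 0.00509 FPKM in the knockdown, 0.0666 FPKM in the maturing control and 0.121 FPKM in the proliferating control, and the serotonin receptor gene Htr1b as higher, at 0.213 FPKM in the knockdown and listed at 0 in both controls. Ahnak, the giant scaffold protein that the complex of annexin A2 and S100a10 anchors at the membrane, had 6.61 FPKM in the knockdown, 0.152 FPKM in the maturing control and 0.341 FPKM in the proliferating control, and so was measured through its knockdown value alone. Its log2 ratio over the proliferating control was 4.28 ± 0.50 in the authors' deposited table. Fgfr1, a receptor for the S100a13 partner Fgf1, had 17.6 FPKM in the knockdown, 1.46 FPKM in the maturing control and 4.92 FPKM in the proliferating control. Fgfr1 was marked in both comparisons with the proliferating control in the authors' deposited table, higher in the knockdown (q-value 0.000265) and lower in the maturing control (q-value 0.0150). Fgf1 itself was at most at 0.00194 FPKM in any library. The S100a4 partner Myh9 had 10.6 FPKM in the knockdown, 14.5 FPKM in the maturing control and 12.4 FPKM in the proliferating control, and the S100a6 partner Cacybp had 20.3 FPKM in the knockdown, 18.7 FPKM in the maturing control and 29.7 FPKM in the proliferating control; neither was marked. Myh9 and Cacybp were thus present in libraries in which S100a4 and S100a6 were at or near 0. Ager, a cell surface receptor of several S100 proteins, reached 0.320 FPKM at most, and Bsg, which S100a9 can bind, had 63.1 FPKM in the knockdown, 84.0 FPKM in the maturing control and 76.6 FPKM in the proliferating control.

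The plasminogen system, which the annexin A2 complex serves at the cell surface, had 3 measured rows of 10. Plau, the urokinase activator of plasminogen, had 6.71 FPKM in the knockdown, 0.120 FPKM in the maturing control and 0.253 FPKM in the proliferating control, and passed the filter through its knockdown value alone. The authors' deposited table marked Plau as higher in the knockdown over the proliferating control, with a log2 ratio of 4.73 ± 0.51, a 26.6-fold difference. The row 5033414D02Rik, named Plgrkt in RefSeq and coding for a plasminogen receptor, had 50.3 FPKM in the knockdown, 24.1 FPKM in the maturing control and 28.7 FPKM in the proliferating control and was not marked. Plasminogen itself (Plg) was listed at 0 in all 3 libraries.

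**Figure D5:**
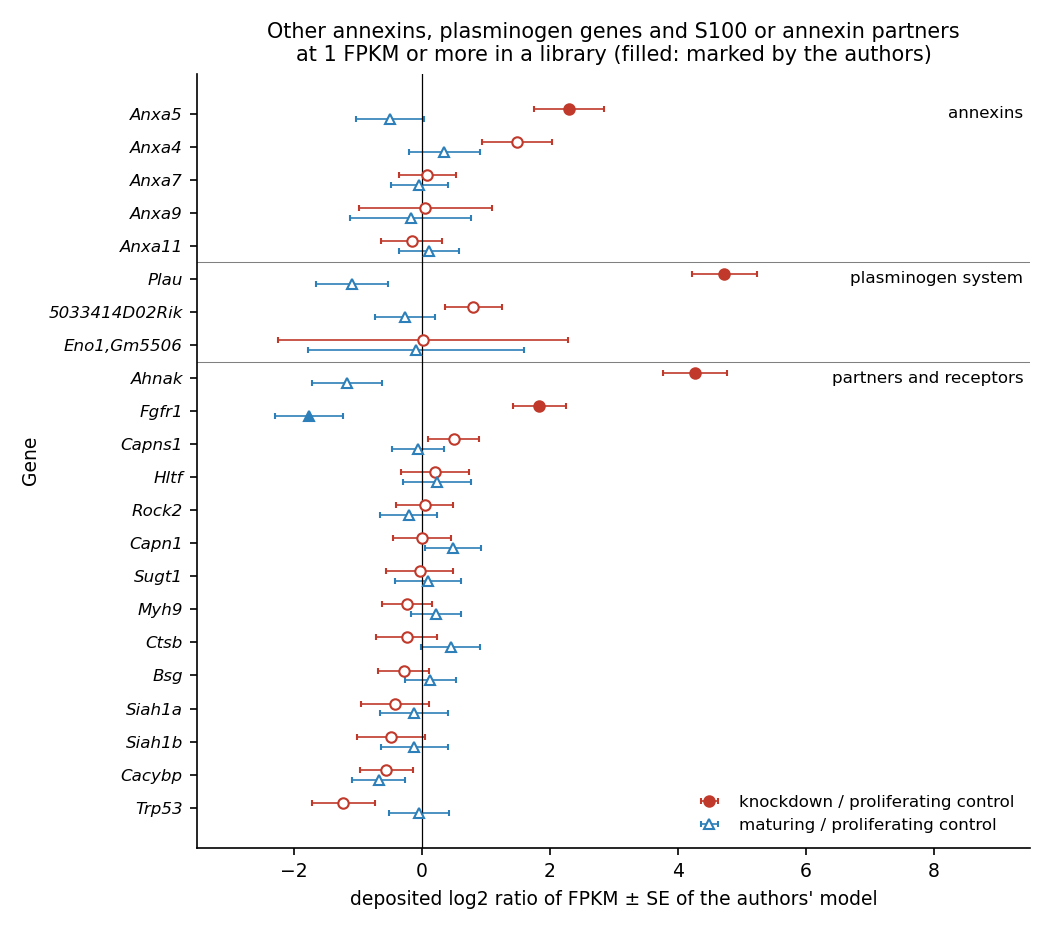
Deposited log2 ratio of FPKM with the standard error of the authors' model for measured genes of the annexin, plasminogen and partner lists, for the knockdown (circles) and the maturing control (triangles), each over the proliferating control; filled points were marked by the authors. Plau at 4.73, Ahnak at 4.28, Anxa5 at 2.31 and Fgfr1 at 1.84 lie to the right, and the other circles were not marked.

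Most markers of granulocytes, monocytes, fibroblasts, endothelium and keratinocytes, cells known to carry S100 proteins, were under 1 FPKM in all 3 libraries. Of 20 granulocyte and monocyte marker rows, 2 reached 1 FPKM (Fcgr3 and Cd68), and the list summed to 12.1 FPKM in the knockdown, 5.40 FPKM in the maturing control and 5.10 FPKM in the proliferating control. Fcgr3 made up most of that, at 10.4 FPKM in the knockdown, 3.55 FPKM in the maturing control and 3.59 FPKM in the proliferating control, and was marked higher in the knockdown over the proliferating control in the authors' deposited table (q-value 0.0489). Cd68 was at 0.377, 1.22 and 0.855 FPKM in the same order, and Elane, Ctsg, Camp, Lcn2 and Lyz2 were listed at 0 in all 3 libraries. Also marked higher in the knockdown in the authors' deposited table, under 1 FPKM, were Itgam, at 0.124 FPKM in the knockdown, 0.00475 FPKM in the maturing control and 0 in the proliferating control, and the fibroblast marker Pdgfra, at 0.207, 0.00460 and 0.00886 FPKM in the same order. Of 13 fibroblast and endothelial markers, Acta2 alone reached 1 FPKM, at 15.97 FPKM in the knockdown, 18.1 FPKM in the maturing control and 21.4 FPKM in the proliferating control, and no keratinocyte marker of 7 did. Of the 11 mast cell and basophil markers, 9 were measured, and the authors' deposited table marked 8 of them as higher in the knockdown over the proliferating control, beside the 3.89% of all measured genes. Of these 8, the genes Tpsab1, Tpsb2, Mcpt4 and Mitf were measured through their knockdown values alone. Of the 5 markers measured in a control, 4 were marked higher. The part of the mast cell markers in the values of S100a1, S100a10 and Anxa2 was not tested.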

How the data were processed

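RNA of cultured mouse erythroblasts was sequenced, 1 sample in each of 4 groups per the labels. The submitters' processing notes name FastQC 0.10.1, Cufflinks 2.0.2, Cuffdiff and mm9; which aligner and gene annotation served is not given in the sources used here. In 3 comparisons of 3 libraries the deposited table has 65535 rows, with 2 values, a log2 ratio, a statistic, a p-value and a q-value a row, per the file headers. The values were read as FPKM, as the authors' Cuffdiff writes them. The knockdown library was matched to its sample by the number and KD in its title. The comparison of the knockdown with the maturing control ends at Slc2a13 and covers 19067 genes. The other 2 comparisons end at l7Rn6 and cover 23234 genes each. Counts and shares of genes in the shorter comparison are thus over fewer genes. Dividing the deposited log2 ratio by the deposited statistic gave the model's standard error, with a median of 0.45 at 5 FPKM or more. The authors marked genes at a q-value of at most 0.05.

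Ratios of size were log2 of FPKM + 1, so changes of low genes are understated. No test was run, since each group had 1 library. Measured genes reached 1 FPKM in a library. Printed loci are the deposited ones with the start raised by 1. Of 133 entries in 9 lists, 126 matched a row. The text names the 9 members, measured entries of the lists, genes next to the members or marked near them, and the 5 nearest in pattern; entries of the lists below 1 FPKM and 4930529C04Rik were chosen after their values were seen. The members, lists and motif words were chosen with earlier results of these data known. Promoter sequences are RefSeq's (GRCm38.p6). Alternatives were pseudocounts of 0.1 and 5 FPKM, other scalings, other filters and a q-value under 0.01. Ratio, scaling and likeness steps were tested on simulated data. Python 3.11.15, numpy 2.4.6 and pandas 2.3.3 were used.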

Additional observations from a re-analysis of the deposited data

How the results depend on the processing

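No paired analysis was possible because each group had 1 library, and no library could be left out for the same reason. No marked ratio of a member changed sign under any alternative, and of 90 alternatives for the 5 tested members, 80 moved the ratio by less than its model standard error. The other 4 members have no such error and lie at or near 0. With a pseudocount of 5 FPKM the log2 ratio in the knockdown over the proliferating control was 1.90 for S100a1 and -2.57 for S100a10, that of Anxa2 in the maturing over the proliferating control was -0.60, and in the knockdown over the maturing control the ratios were 1.85 for S100a1, -2.04 for S100a10 and 1.35 for Anxa2. With 0.1 FPKM S100a10 was at -6.75 and -6.10 over the proliferating and the maturing control, and on the TPM scale, where 1 unit is a smaller share of a level, at -6.33 and -5.67. The largest scaling shift of the median gene was 0.11 on the log2 scale, with the upper quartile made equal. The members marked were as many at a q-value under 0.01. With a pseudocount of 0.1 FPKM, 3 of the 5 genes nearest to S100a10 and 4 of the 5 nearest to Anxa2 were kept. Hemt1 and Kit, the nearest of all to S100a10 and Anxa2 with a pseudocount of 1 FPKM, were not among those kept. Phgdh and Kcne3 were then the nearest. Genes marked with a ratio of at least 1 in size numbered 491 in the knockdown over the proliferating control, 82 in the maturing over the proliferating control and 560 in the knockdown over the maturing control, against 1056, 198 and 1072 marked at any size. The last of these comparisons covers fewer genes, 19067. At a q-value under 0.01, 106 were marked in the maturing over the proliferating control. The median of the plasminogen rows with no filter was 0.01, against 0.79 over the 3 measured. Depth in fragments is unknown, so nothing can be said of differences among members under 0.05 FPKM.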
